A study of Mus musculus with 6 samples.

Results

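The 10 genes of the HoxD cluster that the deposited feature lists name (*Hoxd1*, *Hoxd3*, *Hoxd3os1*, *Hoxd4*, *Hoxd8*, *Hoxd9*, *Hoxd10*, *Hoxd11*, *Hoxd12* and *Hoxd13*) were followed through neurons, satellite glia, fibroblasts and vessels of autonomic ganglia. They were chosen by symbol, without use of their levels, and are 10 of the 32285 genes counted. Single cells came from whole ganglia of P5 mouse pups of both sexes that carried a Cre transgene and a Cre-dependent tdTomato at the Rosa locus. The 6 libraries shared this genotype and age and differed in the ganglion: stellate and lumbar (paravertebral sympathetic), coeliac (prevertebral sympathetic), sphenopalatine (parasympathetic, in the head) and pelvic. The stellate, sphenopalatine and first pelvic (pelvic_1) libraries were made in a first round with version 2 chemistry, and the coeliac, lumbar and second pelvic (pelvic_2) libraries in a second round with version 3. The pelvic ganglion alone had 2 biological replicates, so differences between the other ganglia had no replicate check. The rounds were also run at different facilities, and the number of pups behind a library is not given in the sources used here.

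Hox genes encode homeodomain transcription factors that lie in 4 clusters in mammals, and their order along the chromosome mirrors the order in which they are used along the body from head to tail. Low-numbered genes at the 3′ end are used from the hindbrain and upper trunk downward, and high-numbered genes at the 5′ end are used only near the tail, in the limbs and in the urogenital region. Hox proteins bind DNA together with cofactors of the TALE class, the Pbx, Meis and Pknox proteins. In the nervous system they are known for setting which kind of neuron forms at which level of the body axis, and adult cells often keep the Hox code of the level they came from.

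The cluster lies on mouse chromosome 2 (GRCm38, GENCODE M21) from 74668310 to 74765142, a span of 96.8 kb. By the start of the gene models, *Hoxd13* stands first, followed by *Hoxd12*, *Hoxd11*, *Hoxd10*, *Hoxd9*, *Hoxd8*, *Hoxd3*, *Hoxd4* and *Hoxd1*, all on the forward strand. The models of *Hoxd3* and *Hoxd4* start almost together (74711927 and 74711929), and that of *Hoxd4* ends first (74729160 against 74748442). Their starts therefore do not give the order of these 2 genes. *Hoxd3os1* is an antisense transcript on the reverse strand, from 74703248 to 74716130, that runs over *Hoxd8* and the 5′ parts of the *Hoxd3* and *Hoxd4* gene models. *Hoxd3* and *Hoxd4* overlap on the same strand with each other, with *Gm28230* and with *Mir10b*, and *Hoxd10* and *Hoxd11* both overlap *Gm28309*, so the split of reads between *Hoxd3* and *Hoxd4* is uncertain. *Evx2* and *Lnpk* flank the cluster beyond *Hoxd13*, and *Mtx2* beyond *Hoxd1*.

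Promoter windows of 300 bases, from 250 before to 50 after the start of transcription, were taken from RefSeq (GRCm38.p6), with 11 windows for the 10 genes. They are shown for 4 genes whose patterns are set against each other below. *Hoxd13* was at 0 in every glial sum, and *Hoxd10* and *Hoxd9* were high together in pelvic neurons. *Hoxd8* made up a larger share of RNA in glia than in neurons of the coeliac, lumbar and pelvic libraries. All 4 lie on the forward strand of chromosome 2, at chr2:74667975-74668274, chr2:74691641-74691940, chr2:74697513-74697812 and chr2:74704365-74704664. Capitals mark matches, on either strand, to TATAAA (the TATA box) or AGGTCA (the unit of nuclear receptor sites, a family that includes the retinoic acid receptors).
Hoxd13: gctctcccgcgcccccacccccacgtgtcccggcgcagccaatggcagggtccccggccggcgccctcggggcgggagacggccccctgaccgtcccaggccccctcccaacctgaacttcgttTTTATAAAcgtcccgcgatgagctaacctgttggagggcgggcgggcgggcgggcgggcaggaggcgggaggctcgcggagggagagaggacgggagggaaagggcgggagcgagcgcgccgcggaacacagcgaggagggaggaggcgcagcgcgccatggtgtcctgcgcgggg
Hoxd10: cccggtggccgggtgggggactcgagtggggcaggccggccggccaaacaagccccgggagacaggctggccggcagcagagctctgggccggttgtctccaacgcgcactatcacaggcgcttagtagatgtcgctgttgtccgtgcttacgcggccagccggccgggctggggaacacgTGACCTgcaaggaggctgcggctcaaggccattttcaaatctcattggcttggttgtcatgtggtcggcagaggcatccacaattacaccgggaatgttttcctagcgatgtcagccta
Hoxd9: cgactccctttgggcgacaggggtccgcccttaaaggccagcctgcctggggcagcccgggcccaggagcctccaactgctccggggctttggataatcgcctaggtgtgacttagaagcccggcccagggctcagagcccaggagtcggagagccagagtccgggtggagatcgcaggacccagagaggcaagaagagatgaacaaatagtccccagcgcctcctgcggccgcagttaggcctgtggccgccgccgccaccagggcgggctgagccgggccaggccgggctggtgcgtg
Hoxd8: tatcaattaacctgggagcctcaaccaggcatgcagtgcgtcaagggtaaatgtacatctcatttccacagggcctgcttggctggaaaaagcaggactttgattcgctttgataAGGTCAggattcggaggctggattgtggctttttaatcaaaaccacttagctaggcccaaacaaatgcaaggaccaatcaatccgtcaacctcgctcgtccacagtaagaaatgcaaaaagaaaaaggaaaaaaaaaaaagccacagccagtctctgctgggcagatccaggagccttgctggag
The *Hoxd13* window held 74.3% G and C and 37 CpG pairs, that of *Hoxd10* 62.7% and 22, that of *Hoxd9* 68.3% and 20, and that of *Hoxd8* 46.7% and 6. Over 32851 promoters of the same length the medians were 52.7% and 7. AGGTCA was found in the windows of *Hoxd3*, *Hoxd4*, *Hoxd8* and *Hoxd10* and in 16.3% of all promoters, and TATAAA in those of *Hoxd4* and *Hoxd13* and in 13.6%. In *Hoxd13* the capitals are 2 overlapping matches to TATAAA, one on each strand. Further motifs were searched on both strands. TAATTA (homeodomain core, 5.29% of all promoters) was found in both windows of *Hoxd11*, TGATNNAT (Hox with Pbx, 8.85%) in 1 window of *Hoxd11*, and TTTATNG (caudal-type, 10.9%), which overlaps TATAAA where its N is A, in *Hoxd4*.

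The libraries held between 39353313 (coeliac) and 113352559 (stellate) UMIs in all, and the 21442 cells that passed filtering held between 37297629 (coeliac) and 103139097 (stellate) per library (UMIs are unique molecular identifiers, 1 for each RNA molecule captured). By fixed marker lists, cells fell into 7052 neurons, 8207 glia, 3254 fibroblasts, 726 endothelial cells, 612 mural cells and 530 immune cells. Mural cells here are pericytes and smooth muscle, and the markers did not set vascular smooth muscle apart from other smooth muscle. Another 226 cells with both neuron and glial markers and 781 unnamed cells were left out of the classes. Each class carried its own markers far above the others: the 4 neuron markers summed to between 11000 and 16170 CPM (counts per 1000000 UMIs of the class in that library) in neurons, and the 7 endothelial markers to between 4841 and 6113 CPM in endothelial cells, against 164 CPM at most in the other classes. Markers of neurons were also found in the other classes of every library. They stood in glia at 3.01 to 16.8% of their level in neurons, and in fibroblasts at 1.07 to 10.2%, highest in the stellate library for both. Fibroblast markers summed to 1839 to 7188 CPM in glia, against 34440 to 62800 CPM in fibroblasts, with all 7 or all but 1 of the markers seen. Between 0 and 49 cell barcodes were shared by any pair of libraries. HoxD levels below are UMIs of a gene summed over the cells of a class in 1 library, in CPM, with exact Poisson 95% intervals that cover counting error only. Since 3′ UMIs do not scale with transcript length, CPM was set side by side between genes as molecules captured. CPM is a share of the UMIs of a class, so comparisons between classes leave out the RNA content per cell.

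Neurons of the sphenopalatine ganglion were close to empty of HoxD transcripts, sympathetic neurons carried the 3′ and middle genes, and pelvic neurons added *Hoxd9*, *Hoxd10* and a little *Hoxd11*. All HoxD genes summed to 0.355 CPM in sphenopalatine neurons, 105.8 in stellate, 62.9 in coeliac, 57.8 in lumbar, and 131.4 and 112.7 in the first and second pelvic libraries. Of all HoxD UMIs, the antisense *Hoxd3os1* made up 86.3% in stellate neurons, 73.7% in coeliac, 66.0% in lumbar, and 24.7% and 16.0% in pelvic neurons. In pelvic neurons *Hoxd9* was instead the leading member, with 33.9% and 35.4%, followed by *Hoxd10* in pelvic_2, with 25.8%, and by *Hoxd3os1* in pelvic_1.

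**Figure D1:**
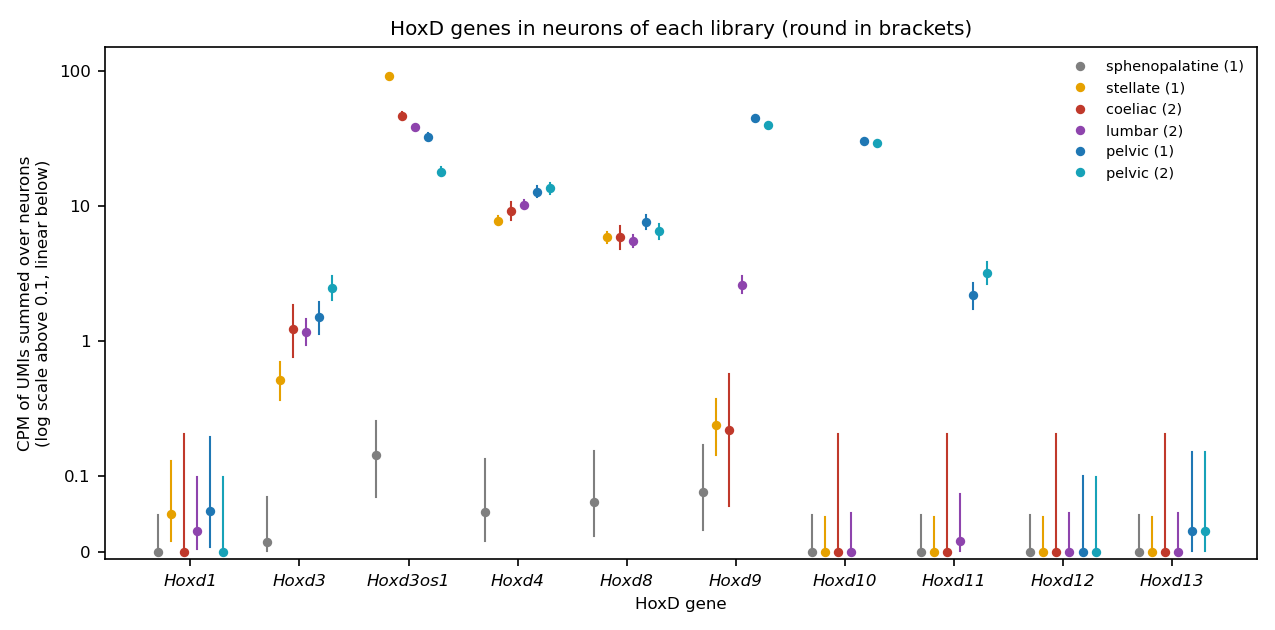
CPM of UMIs summed over neurons (vertical axis, a log scale above 0.1 and linear below) for each HoxD gene in order of gene number (horizontal axis). Each of the 6 libraries has 1 point, its round in brackets, and a bar for its Poisson 95% interval. *Hoxd10* was at 0 in the 4 libraries outside the pelvis and at 30.1 and 29.1 CPM in the pelvic ones, while *Hoxd4* lay between 7.79 and 13.5 CPM and *Hoxd8* between 5.54 and 7.66 CPM in all but the sphenopalatine library.

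*Hoxd10*, a gene known for lumbosacral motor neurons and the hindlimb, gave no UMI in sphenopalatine, stellate, coeliac or lumbar neurons, and 1104 UMIs (30.1 CPM, interval 28.3 to 31.9) and 1073 UMIs (29.1 CPM, interval 27.3 to 30.9) in pelvic neurons. The mean was 29.6 ± 0.73 CPM (SD, n = 2). Both pelvic libraries thus stood apart from the other 4. For the first pelvic library over stellate neurons, of its round, the counting interval of the ratio had a lower limit of 646. Against 3 counts, the limit that a count of 0 allows per library, it was 762-fold above sphenopalatine neurons, also of its round. That last value leaves out counting error in the pelvic count. For the second pelvic library the lower limit of the ratio was 569 over lumbar and 141 over coeliac neurons, both of its round. *Hoxd11*, the next gene toward the 5′ end, was low: 2.18 CPM (80 UMIs) and 3.20 CPM (118 UMIs) in pelvic neurons, 1 UMI in lumbar neurons and 0 in the other 3 libraries. For *Hoxd11* the lower limit of the ratio of pelvic neurons was 45.85 over stellate neurons in the first round and 15.3 over coeliac neurons in the second. *Hoxd12* gave no UMI in neurons of any library, and *Hoxd13*, the most 5′ gene and a regulator of digits and genital structures, gave 1 UMI in each pelvic library.

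*Hoxd9* stood at 0.0789 CPM in sphenopalatine neurons (6 UMIs), 0.239 in stellate (19), 0.222 in coeliac (4), 2.63 in lumbar (190, interval 2.27 to 3.03), 44.6 in pelvic_1 (1636, interval 42.5 to 46.8) and 40.0 in pelvic_2 (1475, interval 37.9 to 42.0). Its mean in the pelvic libraries was 42.3 ± 3.28 CPM (SD, n = 2). The intervals of sphenopalatine, stellate and coeliac neurons overlapped, lumbar lay above them and pelvic was highest. The ratio of stellate to sphenopalatine neurons, of the same round, was still 3.03 (1.16 to 9.28), on 19 and 6 UMIs. Within the second round, pelvic_2 neurons were 15.2-fold above lumbar (interval 13.1 to 17.8) and lumbar neurons 11.8-fold above coeliac (4.54 to 43.8, on 4 coeliac UMIs). Within the first, pelvic_1 neurons were 186-fold above stellate (119 to 310). In lumbar neurons, 13.5% of cells had a *Hoxd9* UMI, against 77.2% and 80.8% of pelvic neurons. After each cell was thinned to 4000 UMIs these shares were 1.46%, 17.6% and 13.2%.

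*Hoxd4* and *Hoxd8* were present from the stellate to the pelvic ganglion, with narrower ranges than *Hoxd9*. *Hoxd4*, a gene known for the hindbrain and the neck, was at 0.0526 CPM in sphenopalatine neurons (4 UMIs), 7.79 in stellate (618), 9.23 in coeliac (166), 10.3 in lumbar (742), 12.8 in pelvic_1 (469) and 13.5 in pelvic_2 (498). Intervals of both pelvic libraries overlapped, as did those of lumbar with coeliac and of coeliac with stellate, while that of pelvic_1 lay above that of lumbar. *Hoxd8* was at 0.0658 CPM in sphenopalatine neurons (5 UMIs) and between 5.54 (lumbar) and 7.66 CPM (pelvic_1) in the other 5, where each overlapped its neighbour in the order. Within a round, pelvic_1 was 1.30-fold above stellate (1.12 to 1.51), and pelvic_2 over lumbar was 1.18 (0.9998 to 1.39). *Hoxd3*, whose gene model overlaps that of *Hoxd4*, stood lower, at 0.0132 CPM in sphenopalatine (1 UMI), 0.516 in stellate (41), 1.22 in coeliac (22), 1.17 in lumbar (85), 1.50 in pelvic_1 (55) and 2.49 in pelvic_2 (92). *Hoxd1*, at the 3′ end, gave 8 UMIs over all neurons and 13 over all retained cells.

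Outside the head, *Hoxd3os1* was higher in sympathetic than in pelvic neurons of the same round. It stood at 0.145 CPM in sphenopalatine neurons (11 UMIs), 91.3 in stellate (7249, interval 89.2 to 93.4), 46.3 in coeliac (833, interval 43.2 to 49.6), 38.2 in lumbar (2762, interval 36.8 to 39.6), 32.5 in pelvic_1 (1193, interval 30.7 to 34.4) and 18.0 in pelvic_2 (664, interval 16.6 to 19.4). None of these intervals overlapped, but they cover counting error only. Stellate neurons were of the first round and coeliac and lumbar neurons of the second. The step between them therefore cannot be told apart from the round. The replicates of the pelvic ganglion differed by 1.81-fold (1.64 to 1.99), and so did they in glia (2.00-fold, 1.63 to 2.47), fibroblasts (2.00-fold, 1.37 to 2.94) and endothelial cells (1.83-fold, 1.40 to 2.42), pelvic_1 being higher in each. The round and chemistry moved with that difference and their part in it was not tested. Within each round the sympathetic libraries remained above the pelvic one, with a ratio of pelvic_1 to stellate of 0.356 in the first and of pelvic_2 to coeliac of 0.388 and to lumbar of 0.471 in the second. *Hoxd3os1* overlaps *Hoxd8* on the other strand. Its UMIs per UMI of *Hoxd8* ran from 0.143 in lumbar endothelial cells (second round) to 15.5 in stellate neurons (first round). In pelvic_1 and pelvic_2 this ratio was 4.25 and 2.755 in neurons, 1.90 and 0.438 in glia, 1.13 and 0.368 in fibroblasts, and 1.05 and 0.470 in endothelial cells. The part of the round in its range was not tested. The kit keeps the strand, but the strand setting of the counting is not given in the sources used here.

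Most neurons outside the head held some HoxD RNA. A UMI of at least 1 member was found in 0.893% of sphenopalatine neurons, 85.5% of stellate, 72.6% of coeliac, 89.1% of lumbar, and 97.0% and 88.8% of pelvic neurons. The median neuron held UMIs of 0, 1, 1, 2, 3 and 4 members in the same order. Median depth differed, from 26651 UMIs per neuron in stellate to 108598 in pelvic_2, and after thinning to 4000 UMIs the shares were 0.211%, 33.1%, 18.5%, 21.1%, 41.6% and 34.4%. As a reference within a library, immune cells, a class near 0 for most members, had a *Hoxd3os1* UMI in 5.53% of stellate cells, where 82.5% of stellate neurons did (29.4% thinned). Their median depths were 6067 and 26651 UMIs. *Hoxd10* was seen in 58.1% and 69.6% of pelvic neurons (9.98% and 10.3% thinned). No stellate neuron of 2724 had a *Hoxd10* UMI, which allows a share with a UMI of up to 0.110% at that library's lower depth and does not limit the share that expresses the gene.

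Glia of the same ganglia kept the ganglion's order for *Hoxd9* and *Hoxd11* but not the neurons' balance of genes. By CPM, *Hoxd8* leaned to glia in the coeliac, lumbar and pelvic libraries. It stood at 0 CPM in sphenopalatine glia (neurons gave 5 UMIs), 4.71 in stellate, 21.5 in coeliac, 28.0 in lumbar, 20.6 in pelvic_1 and 44.6 in pelvic_2. The ratio of neurons to glia was 0.275 (interval 0.216 to 0.348) in coeliac, 0.198 (0.169 to 0.232) in lumbar, and 0.373 (0.305 to 0.456) and 0.146 (0.123 to 0.174) in the pelvic libraries, but 1.25 (0.926 to 1.72) in stellate. By cells this lean was not seen in the pelvic libraries, where 35.0 ± 12.9% of neurons and 24.6 ± 22.6% of glia had a *Hoxd8* UMI (SD, n = 2). Neurons held more UMIs per cell, with medians of 108598 in neurons and 11968 in glia of pelvic_2. By CPM, *Hoxd4* and *Hoxd3* leaned the other way. *Hoxd4* was 6.61-fold higher in neurons than in glia in stellate (3.76 to 12.9), 4.45-fold in coeliac (2.81 to 7.37), 3.13-fold in lumbar (2.19 to 4.64), and 1.84-fold (1.38 to 2.496) and 1.97-fold (1.47 to 2.71) in the pelvic libraries.

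Among the 5′ genes, *Hoxd10* was the one that leaned to neurons and *Hoxd11* the one that did not. Pelvic glia held *Hoxd10* at 7.20 and 4.41 CPM, so that neurons were 4.18-fold (3.19 to 5.58) and 6.58-fold (4.61 to 9.74) higher. The same glia held *Hoxd11* at 4.45 and 4.84 CPM, and there the ratio of neurons to glia was 0.490 (0.324 to 0.755) and 0.660 (0.447 to 0.997). *Hoxd9* was at 40.3 and 27.1 CPM in pelvic glia, near the neurons' level (ratio 1.11, 0.979 to 1.25, and 1.48, 1.27 to 1.73), and at 6.76 CPM in lumbar glia, above lumbar neurons (ratio 0.388, 0.291 to 0.524). Coeliac glia held 1.38 CPM of *Hoxd9* on 14 UMIs, where coeliac neurons held 4 UMIs. *Hoxd3os1* in glia was at 21.5 CPM in stellate, 14.0 in coeliac, 17.1 in lumbar, and 39.0 and 19.5 in pelvic. The neuron markers stood in stellate glia at 16.8% of their level in neurons, and the part of RNA from neurons in these glial levels was not tested.

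Classes were compared over libraries by edgeR's quasi-likelihood test on 30 sums of 5 classes in 6 libraries, with the library as a block. It tested 17345 genes, 8 of them members. *Hoxd1* and *Hoxd12* were too low to be tested. *Hoxd13* met the filter on low counts through the pelvic fibroblasts alone, the sums where it was high, so it is described by its levels and its calls are left aside. *Hoxd3* met it through neurons alone, with 22 to 92 UMIs outside the head and at most 9 in any sum of another class. Its calls against glia and fibroblasts, where neurons were higher, are left aside too. The counts of 7 members below still include it. In neurons against glia, *Hoxd4* was higher (log2 fold change 1.52 ± 0.67, SE, adjusted p = 0.0455 by edgeR) and *Hoxd8* was lower (-1.54 ± 0.65, adjusted p = 0.0380). With *Hoxd3*, called higher but left aside, that is 3 of the other 7 members in either direction. Of all tested genes 72.4% were called, 40.1% as higher and 32.3% as lower. *Hoxd3os1* (1.01 ± 0.71, adjusted p = 0.207), *Hoxd10* (1.76 ± 0.98, adjusted p = 0.112) and *Hoxd11* (-0.94 ± 0.45, adjusted p = 0.0725) did not pass in edgeR. The median of the 7 was 1.01 on the log2 scale, against 0.16 over all tested genes. It includes *Hoxd3* (2.19), set aside above, and so is not read as a lean of the members to neurons. The *Hoxd4* call was lost without the stellate (adjusted p = 0.147 by edgeR), coeliac (0.0638), lumbar (0.0855), pelvic_1 (0.0622) or pelvic_2 library (0.0581), and the *Hoxd8* call without coeliac (0.146), lumbar (0.154), pelvic_1 (0.0765) or pelvic_2 (0.164). Without sphenopalatine, *Hoxd3os1* passed (0.99, adjusted p = 0.00654 by edgeR), and without lumbar, *Hoxd10* did (2.21, adjusted p = 0.0267 by edgeR). The fit takes 1 class difference for all libraries, while the ratios above varied between ganglia.

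**Figure D2:**
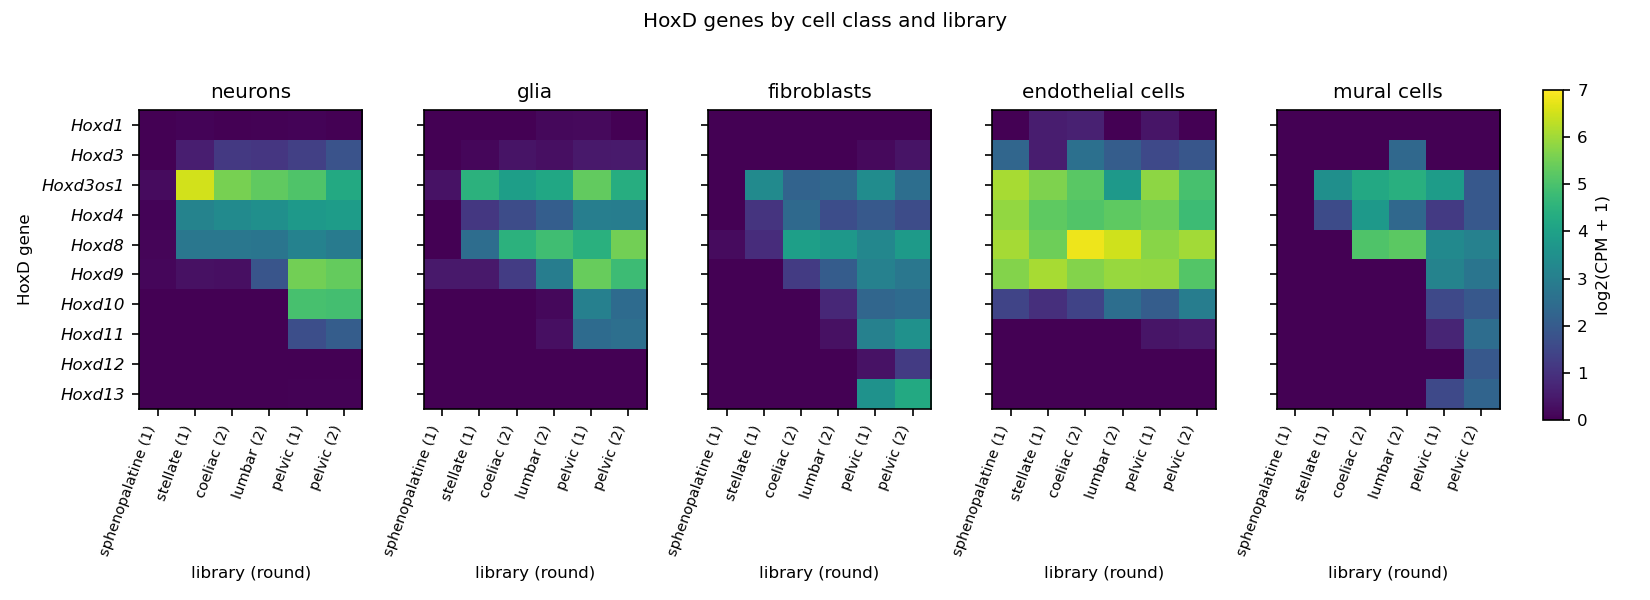
Levels of the HoxD genes as log2(CPM + 1) (colour) for each gene in order of gene number (rows) in the 6 libraries, with the round in brackets (columns). Each of the 5 cell classes has 1 panel. Endothelial cells held *Hoxd4*, *Hoxd8* and *Hoxd9* in all 6 libraries, and *Hoxd13* was seen mainly in pelvic fibroblasts.

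The highest-numbered member detected in a class, at 1 CPM or more on at least 5 UMIs, differed between ganglia, least so in endothelial cells. The 5 UMIs ask for a higher CPM in smaller sums, which held 243635 UMIs in lumbar mural cells and 72358392 in lumbar neurons. Steps in mural cells can therefore follow the size of the sum and are not comparable with those in neurons. In neurons it was *Hoxd8* in stellate and coeliac, *Hoxd9* in lumbar and *Hoxd11* in both pelvic libraries. In glia it was *Hoxd8*, *Hoxd9*, *Hoxd9* and again *Hoxd11*. In fibroblasts it was *Hoxd4* in stellate, *Hoxd9* in coeliac and lumbar, and *Hoxd13* in both pelvic libraries. *Hoxd4* in stellate fibroblasts rested on 5 UMIs, at 13.7% of its level in stellate neurons, where neuron markers stood at 10.2%. The part of RNA from neurons in it was not tested. In endothelial cells it was *Hoxd9* in sphenopalatine, stellate and coeliac and *Hoxd10* in lumbar and both pelvic libraries, and in mural cells *Hoxd8* in coeliac and lumbar, *Hoxd9* in pelvic_1 and *Hoxd11* in pelvic_2. Lumbar and coeliac endothelial cells gave 6 and 3 UMIs of *Hoxd10*, a ratio of 2.87 (0.614 to 17.8) that is not beyond counting error. No member reached that level in neurons, glia, fibroblasts or mural cells of the sphenopalatine ganglion. Lumbar glia and lumbar fibroblasts gave 1 to 3 UMIs each of *Hoxd10* and *Hoxd11*, where 930 lumbar neurons gave 1 *Hoxd11* UMI and no *Hoxd10* UMI.

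In pelvic fibroblasts the HoxD code reached its 5′ end, as it also did in 30 epithelial-like cells of pelvic_2 (*Hoxd13* at 37.3 CPM, *Hoxd11* at 16.5). *Hoxd13* gave no UMI in fibroblasts of the sphenopalatine, stellate, coeliac and lumbar libraries and 80 UMIs (10.9 CPM) and 189 UMIs (18.0 CPM) in pelvic ones, a mean of 14.5 ± 5.02 CPM (SD, n = 2). In glia it was at 0 in all 6 libraries, though fibroblast markers were present there. The counting interval of the ratio of fibroblasts to glia had a lower limit of 22.1 in pelvic_1 and 33.9 in pelvic_2. Against 3 counts in endothelial cells, which were at 0, fibroblasts were 11.4-fold and 15.7-fold higher. These 2 values leave out counting error in the fibroblast counts. Each pelvic fibroblast cluster with its own leading genes held it. In pelvic_1 it was at 7.27 CPM (cluster led by *Tnfsf8* and *Igfbp6*) and 16.8 CPM (*Dpt* and *Clec3b*). In pelvic_2 it was at 16.5 CPM (*Thbs4* and *Abca9*) and 19.6 CPM (*Fmo2* and *Tcf21*). These clusters differed between the libraries, so across libraries cluster and round cannot be told apart. *Hoxd11* was at 7.50 and 10.6 CPM in pelvic fibroblasts, 3.44-fold (2.39 to 4.91) and 3.31-fold (2.53 to 4.32) above pelvic neurons. *Hoxd12*, the member between them, gave 2 and 14 UMIs there (0.27 and 1.33 CPM).

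**Figure D3:**
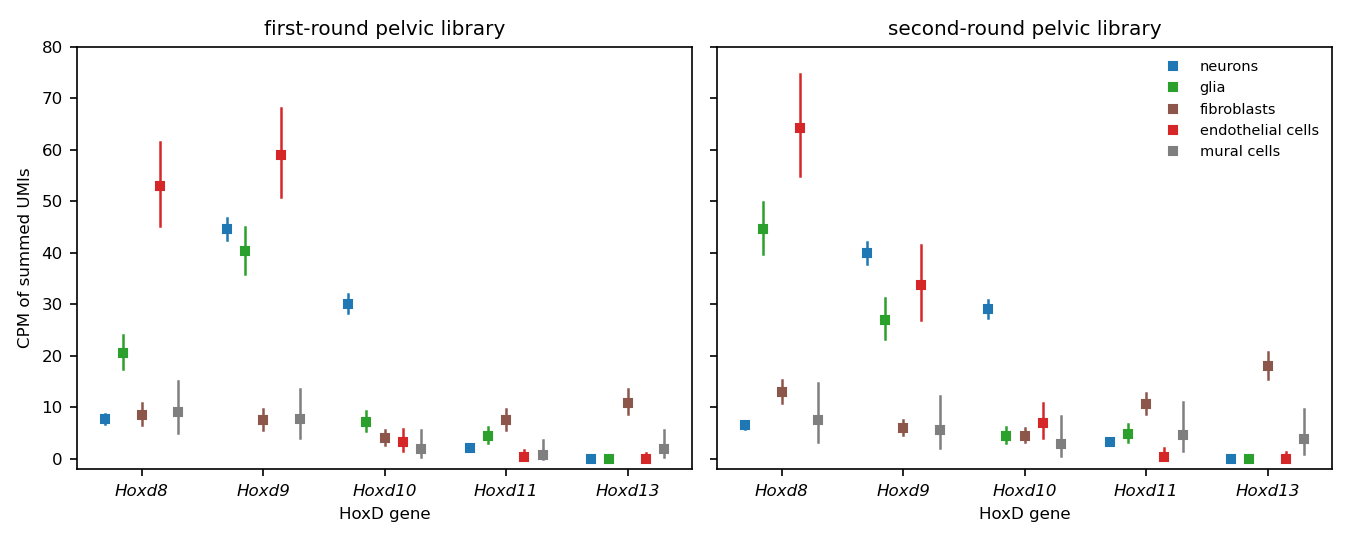
CPM of summed UMIs (vertical axis) of *Hoxd8*, *Hoxd9*, *Hoxd10*, *Hoxd11* and *Hoxd13* (horizontal axis) in pelvic neurons, glia, fibroblasts, endothelial and mural cells (colours), with 1 panel for each pelvic library and bars for Poisson 95% intervals. Of these whole classes, *Hoxd10* was highest in neurons (30.1 and 29.1 CPM), *Hoxd11* and *Hoxd13* in fibroblasts (7.50 and 10.6, 10.9 and 18.0 CPM).

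*Hoxd10*, so high in pelvic neurons, was at 3.95 and 4.48 CPM in pelvic fibroblasts, and *Hoxd9* at 7.50 and 5.91. The 3′ genes were scarce in fibroblasts: *Hoxd4* between 1.06 CPM (stellate) and 4.28 CPM (coeliac) and *Hoxd3os1* between 3.72 CPM (coeliac) and 9.54 CPM (pelvic_1) outside the sphenopalatine ganglion, where neither gave a UMI. *Hoxd8* was at 0.15 CPM in sphenopalatine fibroblasts, 0.85 in stellate, 14.3 in coeliac, 12.3 in lumbar, and 8.45 and 13.0 in pelvic. Stellate fibroblasts thus stood well below those of the lower trunk for this gene.

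Against neurons, fibroblasts were higher in *Hoxd11* (log2 fold change 1.88 ± 0.45, SE, adjusted p = 0.00175 by edgeR). They were lower in *Hoxd3os1* (-2.67 ± 0.80, adjusted p = 0.00471) and *Hoxd4* (-1.996 ± 0.74, adjusted p = 0.0196). With *Hoxd3*, called lower but left aside, this is 4 of the 7 members. Of all tested genes 72.9% were called, 34.1% as higher and 38.8% as lower. The median of the 7 was -1.85 against -0.12 over all tested genes. *Hoxd3* (-3.40) is again among the 7, so this median is not read as a result about the members. For *Hoxd13*, with 1 UMI in the neurons of each pelvic library, fibroblasts were 400-fold (69.8 to 16000) and 665-fold (118 to 26397) above neurons within the pelvic libraries. DESeq2 called none of the members higher (*Hoxd11* adjusted p = 0.0778 by DESeq2) and 3 lower, the number edgeR called lower with *Hoxd3* counted. The *Hoxd4* call was lost without stellate (adjusted p = 0.0609 by edgeR) and without pelvic_2 (0.0545), and *Hoxd10* passed without lumbar (-2.53, adjusted p = 0.0157 by edgeR).

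Against glia, 0 of the 7 members were called higher or lower in fibroblasts by edgeR, with 46.7% of all tested genes called, 22.9% as higher and 23.8% as lower. At an unadjusted p under 0.05, 1 was lower (*Hoxd3os1*) and 0 were higher, and DESeq2 called 0 in either direction. Without the sphenopalatine library *Hoxd3os1* (-1.71, adjusted p = 0.000268 by edgeR) and *Hoxd8* (-1.12, adjusted p = 0.0424) passed as lower.

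Endothelial cells held *Hoxd4*, *Hoxd8* and *Hoxd9* in all 6 libraries, without the low sphenopalatine levels seen in neurons. *Hoxd4* stood at 57.7 CPM in sphenopalatine, 37.7 in stellate, 33.5 in coeliac, 37.7 in lumbar, and 43.0 and 26.8 CPM in pelvic endothelial cells (39.4 ± 10.5, SD, n = 6). *Hoxd9* was at 51.5, 67.4, 50.8, 59.3, 59.0 and 33.7 CPM in the same order (53.6 ± 11.5, SD, n = 6). *Hoxd8* was at 66.2, 42.8, 112, 89.8, 52.9 and 64.3 CPM (71.4 ± 25.5, SD, n = 6). For all 3 genes the sphenopalatine endothelium lay within the range of the other libraries or at its top, although sphenopalatine neurons, glia and fibroblasts held each at or below 0.4 CPM. Over the 6 libraries *Hoxd9* ran from 33.7 to 67.4 CPM in endothelial cells (SD over mean 21.5%) and from 0.0789 to 44.6 CPM in neurons. Some endothelial differences within a round were beyond counting error. Among them were *Hoxd8* in pelvic_2 over coeliac (0.573, 0.464 to 0.707), *Hoxd9* in pelvic_2 over lumbar (0.568, 0.412 to 0.784) and *Hoxd4* in stellate over sphenopalatine (0.653, 0.481 to 0.882). The pelvic replicates differed by 1.75-fold for *Hoxd9* (1.35 to 2.28) and 1.61-fold for *Hoxd4* (1.19 to 2.18).

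All HoxD genes summed to 248, 199, 240, 208, 216 and 165 CPM in endothelial cells, above the neurons of every library. *Hoxd10* was low there, from 0.93 CPM in stellate to 6.89 CPM in pelvic_2, and *Hoxd13* gave no UMI. Within the second round *Hoxd10* in pelvic_2 was 4.11-fold above coeliac (1.20 to 21.8), on 18 and 3 UMIs. Within the first, pelvic_1 over stellate was 3.43 (0.730 to 32.2), not beyond counting error. *Hoxd3os1* ran from 12.8 CPM in lumbar to 66.7 CPM in sphenopalatine endothelial cells. A set of 40 pelvic_1 endothelial cells, clustered apart and led by *Gkn3*, *Cldn5*, *Eln*, *Gja5* and *Gja4*, genes known from arteries, held *Hoxd4* at 115.9 CPM, *Hoxd8* at 119.7 and *Hoxd9* at 149.6 CPM. The other 183 endothelial cells of the main cluster in that library held 28.0, 39.2 and 40.3 CPM. The cluster held 54 cells in all, 10 of them from sphenopalatine and 1 or 2 from each of stellate, lumbar and pelvic_2. It had enough cells in pelvic_1 alone and was formed from the same data, so no test was made.

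In endothelial cells against neurons, *Hoxd3* (log2 fold change 1.51 ± 0.59, SE, adjusted p = 0.0248 by edgeR), *Hoxd4* (2.57 ± 0.68, adjusted p = 0.00191), *Hoxd8* (4.10 ± 0.72, adjusted p = 2.41e-05) and *Hoxd9* (4.83 ± 0.97, adjusted p = 0.000123) were higher and *Hoxd11* was lower (-2.82 ± 0.82, adjusted p = 0.00662). These are 5 of the 7 members, where 70.7% of all tested genes were called, 32.1% as higher and 38.7% as lower. The *Hoxd9* difference lay outside the pelvis: the ratio of endothelial cells to neurons was 652 (288 to 1824) in sphenopalatine, 282 (174 to 481) in stellate, 228 (86.2 to 856) in coeliac and 22.6 (17.04 to 29.7) in lumbar, but 1.32 (1.13 to 1.54) in pelvic_1 and 0.843 (0.672 to 1.05) in pelvic_2. For *Hoxd4* and *Hoxd8* it was above 1 in all 6 libraries, at 1.99 (1.52 to 2.55) and 9.85 (8.04 to 12.04) in pelvic_2. For *Hoxd11*, endothelial cells gave 1 UMI in each pelvic library, a ratio to neurons of 0.146 (0.00366 to 0.838) and 0.120 (0.00301 to 0.680). *Hoxd3* rested on 1 (stellate) to 9 (coeliac) endothelial UMIs per library. Its ratio to neurons was 301 (38.7 to 13565, on 1 neuronal UMI) in sphenopalatine and 4.11 (1.66 to 9.28) in coeliac. In stellate (0.900), lumbar (2.73), pelvic_1 (1.28) and pelvic_2 (1.08) the interval included 1. *Hoxd3os1* did not pass (0.76 ± 0.80, adjusted p = 0.401 by edgeR). *Hoxd3* lost its call without sphenopalatine (adjusted p = 0.0848 by edgeR), coeliac (0.115) or lumbar (0.0780), and *Hoxd11* without pelvic_1 (0.0528) or pelvic_2 (0.0733). DESeq2 gave *Hoxd11* the other sign (0.91, adjusted p = 0.508 by DESeq2).

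Mural cells held few HoxD UMIs, in small sums. In CPM, all HoxD genes summed to 62.6 in coeliac (interval 40.5 to 92.4) and 65.7 in lumbar mural cells (37.5 to 107). Neurons of these libraries held 62.9 and 57.8 CPM. The sums were 12.1 CPM in stellate, 36.1 in pelvic_1 and 32.8 in pelvic_2 mural cells, below the neurons of those libraries. Sphenopalatine mural cells gave no HoxD UMI. *Hoxd8* gave none in sphenopalatine and stellate mural cells, 13 UMIs (32.5 CPM) in coeliac, 9 (36.9 CPM) in lumbar, and 9.03 and 7.51 CPM in pelvic ones. *Hoxd13* gave 3 and 4 UMIs in the pelvic libraries (1.94 and 3.75 CPM) and none elsewhere, and *Hoxd12* gave 3 in pelvic_2. In pelvic_2 a cluster with *Acta2*, *Myh11* and *Actg2* among its leading genes gave 3 UMIs of *Hoxd12* and 3 of *Hoxd13*. Whether this smooth muscle was vascular was not tested. With 1 UMI in the neurons of each pelvic library, the *Hoxd13* ratios of mural cells to neurons were 71.0 (5.70 to 3729) and 139 (13.7 to 6825). Of the 7 members, 0 were called in mural cells against neurons by edgeR, where 58.3% of all tested genes were called, 26.1% as higher and 32.3% as lower. At an unadjusted p under 0.05 there were 0, and DESeq2 called 1, *Hoxd11*, as higher (3.01, adjusted p = 0.0186 by DESeq2). Without sphenopalatine, *Hoxd3os1* (-2.04, adjusted p = 0.000476 by edgeR) and *Hoxd4* (-1.75, adjusted p = 0.0141) were lower, and without lumbar *Hoxd10* was (-3.50, adjusted p = 0.0203). The 530 immune cells gave no UMI of *Hoxd1*, *Hoxd3*, *Hoxd10*, *Hoxd11*, *Hoxd12* or *Hoxd13*. They gave 18 of *Hoxd3os1*, 13 of them in stellate (9.38 CPM, near the 9.15 CPM of stellate fibroblasts), 12 of *Hoxd8*, 8 of them in 1 pelvic_2 cell (9.99 CPM over the class), 4 of *Hoxd9* and 2 of *Hoxd4*.

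Within the pelvic ganglion, neurons fell into 4 named clusters, made without any Hox gene and named P1-like to P4-like from the study's marker lists, which had been chosen on these cells. They held 539, 354, 164 and 89 neurons, and 112 stayed unnamed. P3-like neurons were noradrenergic, with *Th* at 507 CPM, *Dbh* at 1065 and the vesicular acetylcholine transporter gene *Slc18a3* at 5.02 CPM, where *Slc18a3* stood at 351, 470 and 617 CPM in P1-like, P2-like and P4-like neurons.

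*Hoxd10* was high in the 3 cholinergic clusters and almost missing from P3-like neurons. Its mean over the pelvic libraries was 34.4 ± 3.47 CPM in P1-like, 31.5 ± 0.105 in P2-like, 37.9 ± 0.776 in P4-like and 1.66 ± 0.105 CPM in P3-like neurons (SD, n = 2). The 3 clusters together were 20.1-fold above P3-like in pelvic_1 (10.5 to 44.0) and 20.4-fold in pelvic_2 (9.35 to 55.8). *Hoxd9* differed less, at 41.7 ± 5.15, 53.2 ± 0.463, 50.8 ± 9.42 and 15.9 ± 0.417 CPM in P1-like, P2-like, P4-like and P3-like neurons (SD, n = 2), a ratio of 3.06 (2.45 to 3.86) and 2.73 (2.11 to 3.61). *Hoxd9* in P3-like neurons was still above its 2.63 CPM in lumbar sympathetic neurons.

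**Figure D4:**
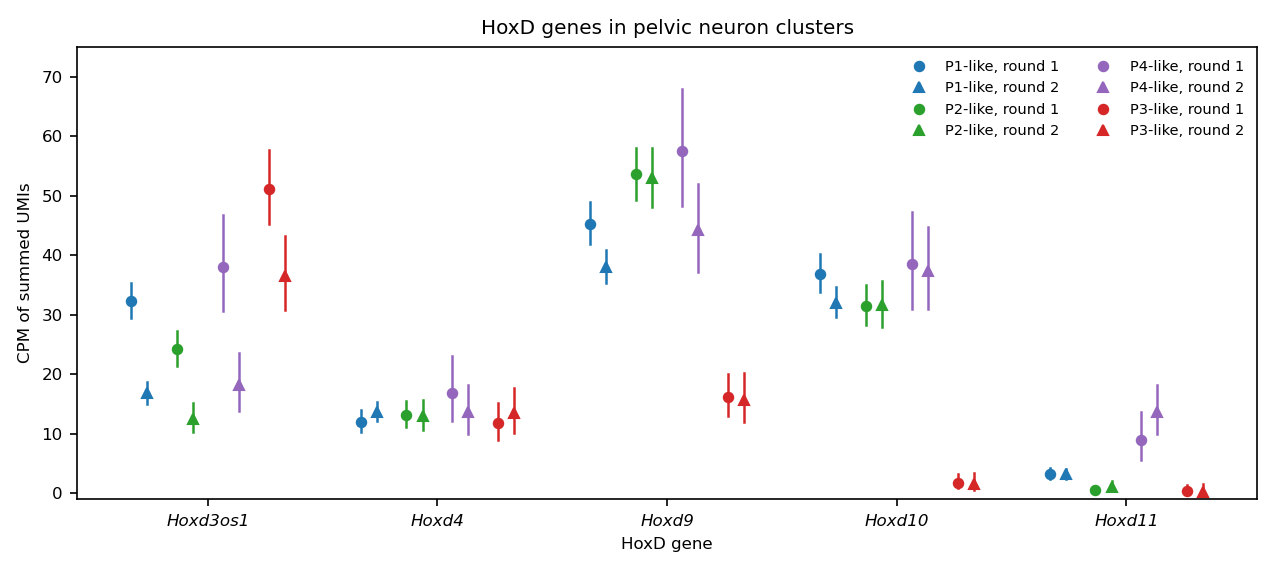
CPM of summed UMIs (vertical axis) of *Hoxd3os1*, *Hoxd4*, *Hoxd9*, *Hoxd10* and *Hoxd11* (horizontal axis) in the 4 named clusters of pelvic neurons (colours), with 1 point for each pelvic library (circles for the first round, triangles for the second) and bars for Poisson 95% intervals. *Hoxd10* stood at 1.66 CPM on average in P3-like neurons and at 31.5 CPM or more in the other named clusters, while the means of *Hoxd4* lay between 12.6 and 15.3 CPM.

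*Hoxd11* was uneven among the cholinergic clusters as well. It stood at 8.88 CPM (21 UMIs) and 13.6 CPM (44 UMIs) in P4-like neurons, at 3.17 and 3.19 CPM in P1-like, and at 0.452 (5 UMIs) and 1.05 CPM (9 UMIs) in P2-like neurons. P3-like neurons gave 2 and 1 UMIs. The P4-like levels (intervals 5.50 to 13.6 and 9.88 to 18.2) stood above the 4.45 and 4.84 CPM of pelvic glia. They were near the 7.50 and 10.6 CPM of pelvic fibroblasts. *Hoxd3os1* was turned the other way, with 43.9 ± 10.3 CPM in P3-like neurons against 24.5 ± 10.9, 18.3 ± 8.30 and 28.1 ± 14.0 CPM in P1-like, P2-like and P4-like neurons (SD, n = 2). The ratio of the 3 clusters to P3-like was 0.578 (0.502 to 0.666) and 0.432 (0.357 to 0.525). For *Hoxd4* the same ratio was 1.09 (0.829 to 1.46) and 0.997, not beyond counting error. In P1-like neurons 58.4% and 73.9% held UMIs of both *Hoxd9* and *Hoxd10*, where independent detection would give 56.4% and 62.3%. In P3-like neurons 2.29% and 12.1% held both. No test was made between clusters, which were formed from these same cells.

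Of the genes beside the cluster, *Mtx2* and *Lnpk* were seen in every class and library. *Mtx2*, a mitochondrial outer membrane gene, stood between 42.7 and 134.5 CPM in all 5 classes and all libraries, and *Lnpk*, which shapes the endoplasmic reticulum, between 9.76 and 94.5 CPM. *Evx2*, the homeobox gene next to *Hoxd13*, gave 5 and 22 UMIs in pelvic fibroblasts (0.682 and 2.10 CPM), 1 UMI in pelvic neurons, and none in the other sums of the 5 classes. It was thus seen in the same class and ganglion as *Hoxd13*. *Haglr*, an antisense transcript between *Hoxd3* and *Hoxd1*, reached 1.86 CPM at most.

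Genes of the other Hox clusters were compared in the same fit. Of 30 listed HoxA, HoxB and HoxC genes, 26 were tested. In neurons against glia 4 were higher, among them *Hoxc9* (log2 fold change 2.05 ± 0.60) and *Hoxc4* (1.18 ± 0.34), and 9 were lower, among them *Hoxb8* (-4.41 ± 0.51) and *Hoxa2* (-3.65 ± 0.73), where 40.1% and 32.3% of all tested genes were called. In fibroblasts against neurons 14 were higher and 3 lower, where 34.1% and 38.8% of all genes were. Against glia 4 were higher, with *Hoxa13* (7.13 ± 0.89) and *Hoxa11* (6.50 ± 1.27) first, and 1 was lower, where 22.9% and 23.8% were. *Hoxa13* ran with *Hoxd13* over the sums (r = 0.914), whose calls were set aside. The sums that carried *Hoxa13* and *Hoxa11* past the count filter were not examined. These counts may therefore include genes that passed only through sums where they were high. In endothelial cells against neurons 15 were higher, led by *Hoxb8* (5.35 ± 0.53), and 7 lower, led by *Hoxc4* (-3.96 ± 0.47), where 32.1% and 38.7% of all genes were. In mural cells against neurons 12 were higher and 2 lower, where 26.1% and 32.3% were. Of the 9 TALE cofactors, 3 were higher in neurons than in glia, with *Meis1* (3.37 ± 0.21) and *Meis3* (1.68 ± 0.14) first, and 1 was lower, *Pknox2* (-1.65 ± 0.23), where 40.1% and 32.3% of all genes were. Against neurons, 4 of the 9 were higher and 3 lower in fibroblasts, 4 and 5 in endothelial cells, and 2 and 4 in mural cells. The shares over all genes are those given above for these comparisons. *Meis2* was higher in fibroblasts (6.21 ± 0.68), endothelial cells (4.82 ± 0.69) and mural cells (5.82 ± 0.74) than in neurons. Lower than in neurons were *Pbx4* in fibroblasts (-2.56 ± 0.21), *Meis3* in endothelial cells (-3.89 ± 0.19) and *Meis1* in mural cells (-2.26 ± 0.25). Fold changes are on the log2 scale with SE, from edgeR's quasi-likelihood test.

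The genes most like each member were sought by Pearson's r of log2(CPM + 1) over the 30 sums among 12728 genes, sums that share libraries and classes. *Hoxd13* was closest to *Rspo3* (r = 0.915), *Hoxa13* (0.914) and *Sult1e1* (0.874). *Hoxd10* and *Hoxd11* were both closest to *Hoxc11* (0.836 and 0.850), followed by *Mucl1* (0.831) and *Nccrp1* (0.808) for *Hoxd10* and by *Aldh1a2* (0.812) and *Ajap1* (0.739) for *Hoxd11*. *Hoxd3os1* was closest to *Hoxd4* (0.787), *Gata2* (0.766) and *Prps2* (0.705). *Hoxd4* and *Hoxd9* were both closest to *Ptprg* (0.853 and 0.799), followed by *Slc6a6* (0.842) and *Gm43573* (0.837) for *Hoxd4* and by *Samhd1* (0.789) and *Rac1* (0.786) for *Hoxd9*. *Hoxd3* was closest to *Slc6a6* (0.816), *Pik3r3* (0.801) and *Abcb1a* (0.793), and *Hoxd8* to *Sbf2* (0.856), *Pggt1b* (0.837) and *Mknk2* (0.836).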

How the data were processed

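Single-cell RNA sequencing by 10x 3′ chemistry was done by the authors, who deposited UMI counts per gene and droplet, not normalized, for 6 libraries. Per the submitters' processing notes Cell Ranger 6.0.1 and mm10 were used. The promoter that drives Cre is not reported here. The strand setting of the counting is not given in the sources used here. The members, gene lists and tests here were chosen with earlier results of these data known.

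Cells with more than 1500 and fewer than 11000 genes and under 15% mitochondrial UMIs were kept, 21442 in all. Neurons were taken by a mean of 4 neuron markers above 3, as in the study, and of glial markers below 1.15, a value set here, after sctransform 0.4.2 (Seurat 5.3.0, R 4.3.3). The other cells were clustered by Louvain at resolution 1 on 50 components of 3000 variable genes, and clusters were named from fixed markers, so that classes may differ from those of the study. A score from simulated doublets marked 2324 cells (10.8%), which stayed in and were left out as an alternative. Pelvic neurons were clustered again without Hox genes. Retained median depth ran from 5814 (stellate) to 18528.5 UMIs (lumbar).

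UMIs were summed over the cells of a class in a library, for classes of at least 20 cells, and given as CPM of the sum with exact Poisson 95% intervals. Ratios carry exact conditional binomial intervals, and shares of cells exact Clopper-Pearson ones. All cover counting error only. For a count of 0, the limit is 3 counts per library. Sums of 5 classes were compared by edgeR 4.0.16 (TMM, quasi-likelihood, library as a block) for genes with at least 10 UMIs in at least 2 sums, with Benjamini-Hochberg adjustment over 17345 genes at a threshold of 0.05, and the code was tested on simulated data. The libraries are the replicates of a class, but they differ in ganglion and round, so the p-values measure that spread too. Cells were thinned to 4000 UMIs for shares. DESeq2 1.42.0, no TMM, no filter, 50 cells per sum, each library left out, only the 2 classes compared, and each round alone (both chosen after seeing the data) were the alternatives. Python 3.11.15 with numpy 2.4.6, scipy 1.17.1, pandas 2.3.3, scikit-learn 1.9.0 and python-igraph 0.11.9 was used. Named were all 10 members, at most 4 other Hox or TALE genes per comparison with the lowest adjusted p in each direction, flanking genes, and the 3 genes most like each member with at least 200 UMIs. The arterial-type endothelial set, the leading fibroblast and mural genes, *Gm28230*, *Mir10b* and *Gm28309* were named after values or annotation were seen. Promoter windows and motif matches come from RefSeq's GRCm38.p6 table.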

Additional observations from a re-analysis of the deposited data

Results flagged for a closer look

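Several ratios between classes lay on opposite sides of 1 in the pelvic libraries and in others, and the differences themselves were not tested. Counting intervals (95%) of some pelvic ratios include 1. *Hoxd3os1* in neurons over glia was 0.833 (0.734 to 0.9495) in pelvic_1 and 0.922 (0.766 to 1.12) in pelvic_2, against 4.25 in stellate, 3.30 in coeliac and 2.23 in lumbar. *Hoxd3os1* in endothelial cells over neurons was 1.71 (1.45 to 2.001) and 1.68 (1.31 to 2.13) in the pelvic libraries, against 0.540 in stellate, 0.771 in coeliac and 0.336 in lumbar. *Hoxd9* in neurons over glia was 1.11 (0.979 to 1.25) and 1.48 (1.27 to 1.73) in the pelvic libraries and 0.388 in lumbar. *Hoxd8* in fibroblasts over neurons was 1.10 (0.824 to 1.46) and 1.99 (1.60 to 2.46) in the pelvic libraries and 0.145 in stellate. *Hoxd4* in fibroblasts over glia was 0.413 (0.236 to 0.696) and 0.307 (0.176 to 0.518) in the pelvic libraries and 2.06 in coeliac. The intervals of these ratios in the other libraries exclude 1. The pelvic ratios rest on 2 libraries of different rounds, and each of the others on 1.

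Outside the compared classes, 30 epithelial-like cells of pelvic_2 held *Hoxd13* at 37.3 CPM (43 UMIs), above the 18.0 CPM of the fibroblasts in that library, with no such class of at least 20 cells in another library.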

How the results depend on the processing

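No paired analysis was possible because only the pelvic group has more than 1 library and the numbers 1 and 2 there name rounds. The class comparisons carry the library as a block instead. Of 1109 recomputed values 871 stayed the same. For these, tests kept their direction and side of the threshold, counts of genes lay within a set factor, or levels moved by less than the spread. Another 42 fell short of the threshold, 26 newly passed it and 169 moved. Among the 169 were all 56 recomputed shares of neurons, which thinning and doublets move. DESeq2 reversed *Hoxd11* in endothelial cells against neurons (0.91 on the log2 scale). The causes were not tested.

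The counts of members here include *Hoxd13*, which passed the filter through the pelvic fibroblasts alone and failed it without either pelvic library. With each library left out in turn, the members called higher and lower ranged from 1 to 3 and from 0 to 1 in neurons against glia, from 1 to 2 and from 2 to 4 in fibroblasts against neurons, from 0 to 1 and from 0 to 2 in fibroblasts against glia, from 3 to 4 and from 0 to 1 in endothelial cells against neurons, and from 0 to 1 and from 0 to 2 in mural cells against neurons. Over all tested genes, those called in either direction ranged from 11943 to 12251 in neurons against glia. They ranged from 12058 to 12259 in fibroblasts against neurons and from 7289 to 7550 in fibroblasts against glia. For endothelial and mural cells against neurons they ranged from 11670 to 11770 and from 9344 to 10044. In neurons against glia, DESeq2, no filter, 50 cells per sum and no doublets each gave 0 members lower, no TMM 1 higher, and the 2 classes alone 4 higher. In fibroblasts against neurons DESeq2 gave 0 higher. In fibroblasts against glia DESeq2 gave 0 higher, no filter 2 higher, and the 2 classes alone 2 higher and 3 lower. In endothelial cells against neurons DESeq2 gave 0 lower and the 2 classes alone 1 higher. In mural cells against neurons no filter gave 2 higher, 50 cells per sum 1 lower, no doublets 1 lower, and the 2 classes alone 0 higher and 4 lower. The first round alone gave 0 members higher and 0 lower in neurons against glia and in fibroblasts against neurons, 0 higher in fibroblasts against glia and in mural cells against neurons, and 0 lower in endothelial cells against neurons. The second round alone gave 0 higher and 2 lower in fibroblasts against glia and 1 lower in mural cells against neurons. A round holds 3 libraries, so a call missed within it says nothing about stability. Beyond the libraries left out, no count over all genes is set beside these alternatives. Their counts are therefore not read as a result about the members.

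Summed HoxD CPM in sphenopalatine neurons, 0.355, was 0.167 without doublets, 0.185 without cells with markers of another class and 0.528 thinned. Coeliac neurons moved from 62.9 to 55.8 as a mean over cells and 54.96 thinned, lumbar from 57.8 to 62.1 thinned, and pelvic_2 from 112.7 to 105.8 and 105.3. Without cells with markers of another class, pelvic_2 endothelial cells stood at 181.8 and pelvic_2 mural cells at 21.6 CPM.

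Depth limits the low members: *Hoxd1* and *Hoxd12* and, in neurons outside the pelvis, *Hoxd10*, *Hoxd11* and *Hoxd13* were not detectable or nearly so, which does not show that they are absent.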
